A study of Mus musculus with 4 samples.

Results

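Kit, Flt3, Csf1r, Cd34, Cd93, Procr and Slamf1 encode surface proteins by which stem cells and early progenitors of the bone marrow are recognised, and Egfl7 encodes a secreted factor made by some of the same cells. These 8 genes were picked by symbol from the 23275 entries of an expression table. Each symbol had 1 entry, and all 8 entries had been tested by the authors. RNA came from B220+CD43+ cells, the gate that holds early B-lineage cells, sorted from the marrow of C57BL/6 mice at 8 weeks of age. The wild-type group was Hdac3+/+Mb1cre+/-, and the Hdac3-deleted group was Hdac3F/-Mb1cre+/-, with 1 conditional and 1 null allele. Both groups therefore carried the Mb1-driven recombinase, which acts from the early B-cell stage onward. Sorted cells that do not express the recombinase would keep the conditional allele and lack only the null one. Each group had 2 libraries, each from the pooled cells of 2 mice. Levels are given as FPKM, a count of fragments divided by transcript length and library size, which the authors deposited with 1 value for each genotype over its 2 libraries, so they have no SD between libraries.

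Kit and Flt3 are receptor tyrosine kinases of the same structural class as Csf1r. Kit binds stem cell factor and acts from the stem cell to the pro-B cell, where it supports proliferation together with the interleukin 7 receptor. Flt3 binds Flt3 ligand, is needed for early lymphoid progenitors and dendritic cells, and is shut down by Pax5 as cells commit to the B lineage. Csf1r is the receptor for macrophage colony-stimulating factor and belongs to the monocyte lineage, and it too is repressed by Pax5. Cd93, the AA4.1 antigen, stays on B cells until they mature, while Cd34, Procr and Slamf1 are used to sort stem cells and early progenitors.

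Kit and Egfl7 rose and Csf1r fell in Hdac3-deleted cells, while Flt3, Cd34, Cd93, Procr and Slamf1 did not pass the authors' test. A gene was called changed at a Cuffdiff q-value under 0.05, adjusted over all 12683 tested entries. By this rule 3 of the 8 genes were called, 2 higher and 1 lower, against 6.95% of all tested entries, with 2.81% called higher and 4.14% lower. The fold changes of 6 genes were positive and those of 2 negative. Their median log2 fold change was 0.49, against 0.03 over all tested entries. The 8 genes had been chosen with results of these data in view, so these counts describe them and support no statement about progenitor genes in general. The Hdac3 transcript itself was 46.8 FPKM in wild-type samples and 22.0 FPKM in Hdac3-deleted samples, or 47.1% of its intact level (q = 0.0016 in the authors' deposited table). The null allele and deletion of the conditional allele can both lower this value, and their shares were not tested.

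**Figure D1:**
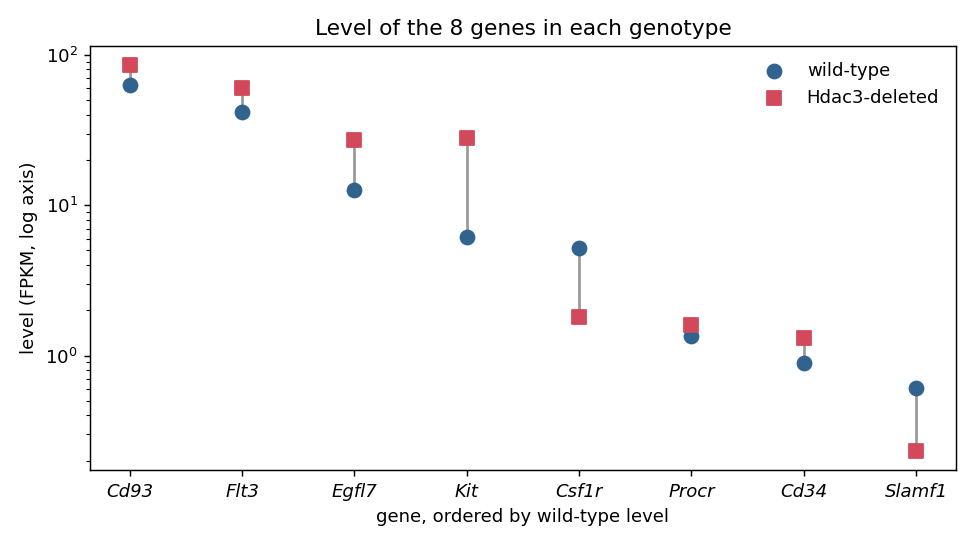
Level of each gene in FPKM (log axis) in wild-type (circles) and Hdac3-deleted cells (squares), ordered by wild-type level, with 1 group value per genotype and no error bars. Kit lies at 6.13 and 27.8 FPKM and Csf1r at 5.16 and 1.79 FPKM, so near-equal wild-type levels are far apart in Hdac3-deleted cells.

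In wild-type cells the level per length ran from Cd93 at 62.7 FPKM and Flt3 at 41.8 FPKM through Egfl7 at 12.5, Kit at 6.13 and Csf1r at 5.16 FPKM to Procr at 1.34, Cd34 at 0.897 and Slamf1 at 0.607 FPKM. In Hdac3-deleted cells Kit and Egfl7 changed places, with 27.8 and 27.0 FPKM, and the order of the other genes was the same. Whether neighbours in this order differ beyond the spread between libraries was not tested, since each genotype has 1 value. A B220+CD43+ population thus had abundant transcripts of Cd93 and Flt3, which early lymphoid cells also carry, and little of Procr, Cd34 and Slamf1, the genes of the stem cell end. The other genes listed as stem and progenitor markers also spanned a wide range, and which of the sorted cells made them was not tested. Ly6a, encoding Sca-1, was 229 and 279 FPKM, Cd48 was 157 and 166 FPKM and Lmo2 was 41.5 and 54.0 FPKM, while Mecom, Hlf and Fgd5 were at 0.155 FPKM or less in both genotypes and were not tested by the authors.

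Kit, on chromosome 5 (mm10) at positions 75574987 to 75656721, had the largest change of the 8 genes. Its level was 6.13 FPKM in wild-type samples and 27.8 FPKM in Hdac3-deleted samples, a 4.54-fold increase. The log2 fold change was 2.18 with an implied standard error of 0.28, the fold change divided by the authors' test statistic, which gives a 95% interval from 1.62 to 2.74. The authors' deposited table gives a Cuffdiff q of 0.0016, the lowest it holds. This moved Kit from percentile 32.7 of the tested genes by level in wild-type cells to percentile 71.6 in Hdac3-deleted cells. The increase of Kit ranked 11 among the 11116 genes that reached 1 FPKM in each genotype. No other gene's exons overlap those of Kit in the GENCODE M21 annotation of this build.

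The sequence before the start site is shown for Kit and Egfl7, because they are the members that were higher. Each stretch holds 250 bases before and 50 after a RefSeq start site on GRCm38.p6, the assembly of mm10, on the plus strand. The Kit stretch is chr5:75574737-75575036, and that of the first of 3 Egfl7 starts is chr2:26580833-26581132. Capitals mark matches, on either strand, to the letters searched.
Kit: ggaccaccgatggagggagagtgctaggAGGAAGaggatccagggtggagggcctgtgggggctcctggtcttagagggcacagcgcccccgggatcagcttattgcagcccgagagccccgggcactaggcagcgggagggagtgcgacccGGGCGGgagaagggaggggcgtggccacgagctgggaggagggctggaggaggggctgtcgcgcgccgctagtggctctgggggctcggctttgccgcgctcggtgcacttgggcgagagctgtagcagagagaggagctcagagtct
Egfl7: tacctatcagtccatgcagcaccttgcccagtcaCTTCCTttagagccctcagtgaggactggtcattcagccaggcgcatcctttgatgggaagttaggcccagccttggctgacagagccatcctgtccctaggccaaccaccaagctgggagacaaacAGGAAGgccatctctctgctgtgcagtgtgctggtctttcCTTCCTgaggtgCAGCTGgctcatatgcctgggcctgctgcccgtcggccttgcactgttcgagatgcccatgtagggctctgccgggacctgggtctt
The Kit stretch held 1 match to the ETS-type letters AGGAAG, at base -222 from the start site, and 1 match to the GC box letters GGGCGG, at base -98. The first Egfl7 stretch held 3 matches to AGGAAG and 1 to the E-box letters CAGCTG. Of 32851 promoters of this length, 35.4% held AGGAAG, 35.7% held GGGCGG and 16.3% held CAGCTG, so these letters are common. The RUNX-type letters TGTGGT, held by 16.8% of promoters, had no match in either stretch. Neither had AGATAA, a site of the zinc finger factors Gata2 and its relatives, which 11.2% of promoters held. Kit's stretch had 20 CpG pairs and that of Egfl7 had 5, against a median of 7. Binding or acetylation at these promoters was not measured in the data used here.

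Flt3, on chromosome 5 from position 147330742 to 147400489, was already abundant in wild-type cells. Its level was 41.8 FPKM in wild-type samples and 60.5 FPKM in Hdac3-deleted samples, a ratio of 1.45, and it did not pass the test (q = 0.0939 in the authors' deposited table). The log2 fold change was 0.53 with an implied 95% interval from -0.01 to 1.07, so a doubling lies within the interval. That interval includes 0 although the authors' unadjusted Cuffdiff p for Flt3 was 0.0084, so it is wider than this p implies. Flt3 transcript exceeded that of Kit 6.83-fold per length in wild-type cells and 2.18-fold in Hdac3-deleted cells. Whether the 2 receptors changed by different amounts was not tested.

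Csf1r, on chromosome 18 from position 61105572 to 61131139, went the other way. It fell 2.88-fold, from 5.16 to 1.79 FPKM (q = 0.0016 in the authors' deposited table). The log2 fold change was -1.52, with an implied 95% interval from -2.21 to -0.84. Kit and Csf1r were within 1.19-fold of each other in wild-type cells, and Kit was 15.5-fold above Csf1r in Hdac3-deleted cells. The 3' neighbour Hmgxb3 lies on the opposite strand, and its exons overlap those of Csf1r in the annotation. Hmgxb3 was not called, at 7.56 and 7.98 FPKM.

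**Figure D2:**
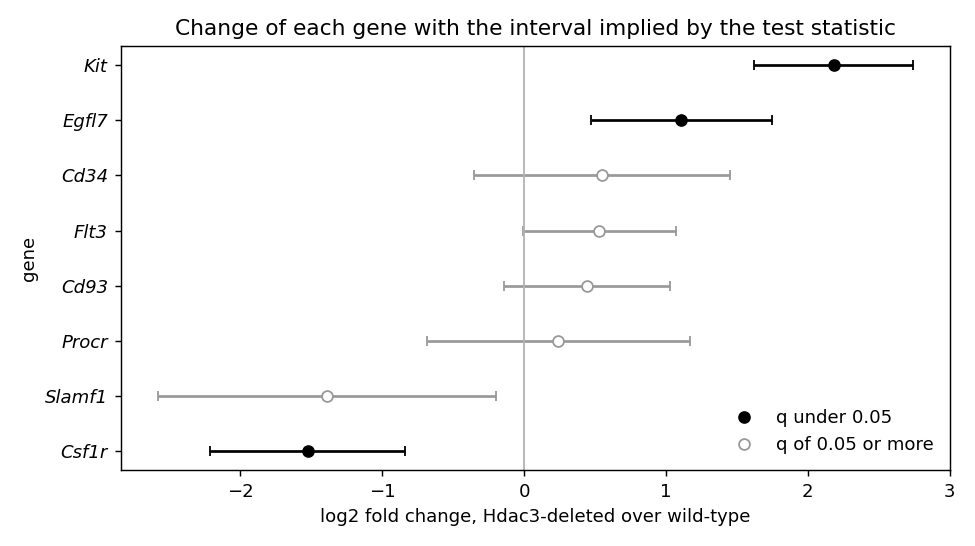
Log2 fold change of each gene, Hdac3-deleted over wild-type, with the 95% interval implied by the authors' test statistic, and filled points for a q under 0.05. Kit at 2.18 and Egfl7 at 1.11 lie to the right of 0 and Csf1r at -1.52 to the left, while the interval of Slamf1 also lies below 0 although its q was 0.077.

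Egfl7, a secreted EGF-domain protein of endothelial cells and early progenitors, rose 2.16-fold. Its level was 12.5 FPKM in wild-type samples and 27.0 FPKM in Hdac3-deleted samples, a log2 fold change of 1.11 with an implied 95% interval from 0.47 to 1.74 (q = 0.0016 in the authors' deposited table). The gene lies on chromosome 2 from position 26581056 to 26592682 and has 7 transcripts in the basic annotation, which start from several sites. At the third RefSeq start, chr2:26586386-26586685, the stretch held 31 CpG pairs and 4 matches to GGGCGG, against 5 CpG pairs and 0 such matches at the first. Which start was used cannot be read from a value per gene. An annotated transcript named Gm20532 shares exons with Egfl7 on the same strand, so the value of Egfl7 is less certain. An intron of Egfl7 also holds the miR-126a hairpin. Its 3p arm, at chr2:26591402-26591423 on the plus strand, is shown because it shares the Egfl7 transcript, with the seed, bases 2 to 8, in capitals (RefSeq, GRCm38.p6).
miR-126a-3p: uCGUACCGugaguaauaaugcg
The entry for Mir126, listed at the same locus as Egfl7, was at 0 FPKM in both genotypes and was not tested. Libraries of polyadenylated RNA do not measure a mature miRNA, so the level of miR-126 is not known from these data.

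The 4 remaining genes did not pass the test and span a wide range of levels. Cd93, on chromosome 2 from position 148436651 to 148443535, a C-type lectin-like receptor, was the most abundant of the 8 genes. It was 62.7 FPKM in wild-type samples and 85.4 FPKM in Hdac3-deleted samples, a log2 fold change of 0.45 with an implied 95% interval from -0.14 to 1.03. The q of Cd93 in the authors' deposited table was 0.253. Cd34, a sialomucin on chromosome 1 from position 194938821 to 194976959, was 0.897 and 1.31 FPKM, with a log2 fold change of 0.55 and an interval from -0.35 to 1.45. Procr, the endothelial protein C receptor, on chromosome 2 from position 155751217 to 155755478, was 1.34 and 1.59 FPKM, with a log2 fold change of 0.24 and an interval from -0.69 to 1.17. In the authors' deposited table the q was 0.454 for Cd34 and 0.841 for Procr. For Cd93, Cd34 and Procr the intervals include both no change and a doubling. The authors' unadjusted Cuffdiff p for Cd93 was 0.0395, so its interval too is wider than its p implies.

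Slamf1, the founding SLAM-family receptor on chromosome 1 from position 171767132 to 171801184, was the least abundant of the 8 genes. It was 0.607 FPKM in wild-type samples and 0.232 FPKM in Hdac3-deleted samples, a log2 fold change of -1.39 that did not pass the test (q = 0.077 in the authors' deposited table). The values of Slamf1 rest on about 86.4 and 29.6 fragments, estimated from the size of the smallest steps in the table. By the same estimate Procr rests on about 114 and 120 fragments, and Flt3 on about 8096 and 10482. These estimates cover both libraries of a genotype and use 1 annotated transcript per gene. Adding 1 FPKM to both values brought the log2 fold change to -0.38. Exons of Cd34 overlap those of the opposite-strand transcript Gm16897, which was 0.0418 and 0.045 FPKM.

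**Figure D3:**
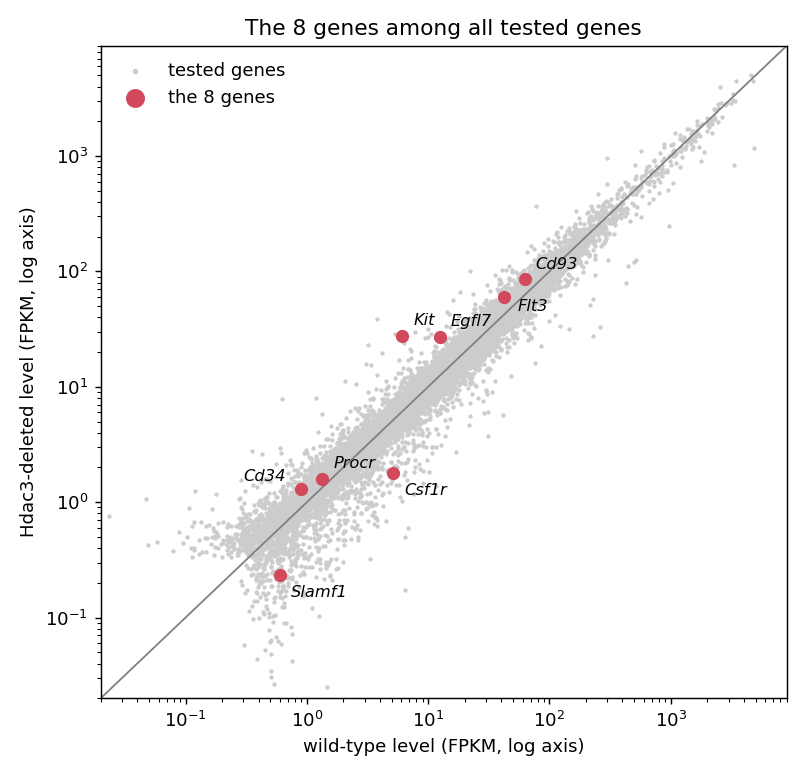
Level of every tested gene above 0 in both genotypes, wild-type against Hdac3-deleted (FPKM, both axes log, grey), with the 8 genes in red and the line of equal levels. Kit lies farthest above the line among the 8 genes, and Slamf1 lies among the genes of low level, where the cloud is widest.

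The genes nearest to the called members in level and change were found by distance between log2 levels in the 2 genotypes, among 11110 other tested genes that reached 1 FPKM in each. Nearest to Kit were Cxcr5 at 5.37 and 28.6 FPKM, Mir697 at 6.31 and 24.0 FPKM, which did not pass the test, and Grb7 at 7.74 and 29.8 FPKM. Nearest to Csf1r were Anxa3 at 5.12 and 1.91 FPKM, Tgfbi at 4.77 and 1.90 FPKM, and Gp49a at 5.25 and 1.98 FPKM. Egfl7 was closest to Scn4b at 12.1 and 25.3 FPKM, Dusp7 at 13.2 and 25.5 FPKM, and Rnase12 at 12.3 and 24.9 FPKM. Over 2 group values this likeness is a description of levels only.

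The ligands of the 3 receptors were low or did not pass the test. Kitl, encoding stem cell factor, was 0.154 FPKM in wild-type samples and 0.0449 FPKM in Hdac3-deleted samples, and Il34, the second ligand of Csf1r, was 0.0115 and 0.0437 FPKM, and neither was tested by the authors. Flt3l was 9.66 and 8.50 FPKM and Csf1 was 1.79 and 2.19 FPKM, and neither passed the test. Of 55 tested genes that carry or limit the signal of Kit, Flt3 and Csf1r, 2 rose and 1 fell. By the same rule 2.81% of all tested entries were called higher and 4.14% lower. Log2 fold changes in this list had a median of 0.09, against 0.03 for all tested entries. Socs2, a feedback inhibitor of cytokine receptor signalling, rose 2.31-fold from 17.9 to 41.3 FPKM. Pik3cd, the catalytic subunit of the leukocyte phosphoinositide 3-kinase, rose 1.60-fold from 82.7 to 133 FPKM. None of the 8 tested adaptors and none of the 10 tested effectors passed the Cuffdiff test, beside 6.95% of all tested entries. Of 12 tested inhibitors 1 rose, and of 20 tested kinases 1 rose and 1 fell. With so few genes in each group, these counts do not set the groups apart from that share. Spi1, listed under an older symbol, encodes PU.1, an activator of Csf1r and Flt3, and was 46.1 and 38.4 FPKM without passing the test.

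A list of 22 relatives of the 8 genes, which also held ligands and partners of Procr, had 11 tested genes. Of these 1 was higher and 1 lower, against 6.95% of all tested entries called. The other 11 were not tested by the authors. Slamf9, of the SLAM family, rose 1.57-fold from 27.8 to 43.6 FPKM, and Cd48 of the same family was 157 and 166 FPKM without passing the test. Thbd, thrombomodulin, a relative of Cd93 and a partner of Procr in activating protein C, fell 1.87-fold from 14.6 to 7.81 FPKM. Kdr, the VEGF receptor, was not called, at 5.30 and 6.33 FPKM.

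Among 20 tested stem and progenitor markers, 2 rose and 3 fell, with a median log2 fold change of 0.31. Over all tested entries 2.81% were called higher and 4.14% lower. Hoxa9, a homeobox factor of progenitors, rose 2.07-fold from 1.88 to 3.88 FPKM, and its partner Meis1 rose 1.71-fold from 2.38 to 4.08 FPKM. Prom1, encoding CD133, fell 5.29-fold from 1.19 to 0.226 FPKM, Gfi1b fell 3.27-fold to 1.11 FPKM and Gata2 fell 2.90-fold to 0.202 FPKM. Gata2 is also in the mast cell and basophil list below. Among 24 tested genes of the early B-cell stages, 7 rose and 0 fell by the Cuffdiff test, beside the same shares over all tested entries. Their median log2 fold change was 0.38. Bst1, the BP-3 antigen of early B cells, rose 2.06-fold from 32.6 to 67.2 FPKM. The other 6 were Rag1, Rag2, Dntt, Vpreb1, Igll1 and Pax5, the repressor of Flt3 and Csf1r, which rose 1.52-fold from 79.7 to 121 FPKM.

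Several of the 8 genes are also made outside the B lineage, so marker levels of those cells stand beside them. The counts of called markers stand beside 2.81% of all tested entries called higher and 4.14% called lower. In sorted bulk cells, fewer cells of a type and less RNA per cell cannot be told apart. B-lineage markers summed to 2143 FPKM in wild-type samples and 3361 FPKM in Hdac3-deleted samples, with 5 of 10 higher and a median log2 fold change of 0.55, and 8 of the 10 are also in the early B-cell list above. Ptprc and Spn, which encode the antigens of the sort, were 187 and 204 FPKM and 89.2 and 109 FPKM, and neither was called. Mast cells carry Kit, and of 10 tested markers of mast cells and basophils 4 fell, namely Mcpt8, Prss34, Hdc and Gata2. Their 14 listed genes summed to 29.8 and 8.88 FPKM. Of the mast cell proteases, Tpsab1, Tpsb2 and Mcpt4 were at 0 in both genotypes, whereas Cma1 was 1.54 and 2.0 FPKM and Cpa3 was 2.0 and 0.855 FPKM, both without passing the test. Mcpt8 of basophils fell 6.22-fold from 9.05 to 1.45 FPKM, and Prss34 fell 4.88-fold from 9.03 to 1.85 FPKM. The part of mast cells and basophils in the level of Kit was not tested.

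Csf1r was lower in the same samples as many myeloid markers. Neutrophil markers summed to 10620 and 2631 FPKM, with 11 of 14 tested genes lower, against 4.14% of all tested entries. Among them was S100a8 at 4815 and 1172 FPKM. For monocytes and macrophages 4 of 14 tested markers fell and 1 rose, with a median of -0.16 and sums of 1214 and 922 FPKM. Over all tested entries 4.14% fell and 2.81% rose by the same rule. F13a1 fell from 12.5 to 5.98 FPKM, Cx3cr1 from 3.01 to 1.51 FPKM and Adgre1, listed under an older symbol, from 1.76 to 0.573 FPKM. In the other direction, 5 of the 14 tested markers had positive fold changes. Among them Ccr2 was 76.5 and 102 FPKM and Cd68 was 78.7 and 116 FPKM, both without passing the test. Lyz2 fell 4.14-fold from 518 FPKM and Cd14 rose from 0.602 to 2.94 FPKM, while Ly6c2 was not called, at 470 and 523 FPKM. Ly6c2 is also in the plasmacytoid dendritic cell list. The macrophage genes C1qa, C1qb and C1qc were between 0.897 and 1.14 FPKM in both genotypes. The part of these cells in the fall of Csf1r was not tested.

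Plasmacytoid dendritic cells need Flt3. All 19 of their tested markers had positive fold changes, with a median of 0.39, of which Cd209d at 2.29-fold and Dntt at 1.91-fold rose. Positive fold changes were also common in other lists, in 10 of 10 B-lineage markers, 16 of 17 T-cell, NK-cell and innate lymphoid genes and 21 of 24 early B-cell stage genes, against 53.4% of all tested entries. The 20 listed genes summed to 3585 and 4768 FPKM, and Dntt is a gene of early B cells as well. Of 14 endothelial markers, 8 were under 0.1 FPKM in both genotypes, including Tek, Tie1, Cldn5 and Vwf, while Egfl7 was 12.5 FPKM or more. The endothelial list summed to 72.0 and 90.3 FPKM, most of it Pecam1 at 48.3 and 62.9 FPKM and Cdh5 at 16.1 and 18.7 FPKM, and none of its 6 tested genes passed the Cuffdiff test. T, NK and innate lymphoid markers had 2 of 17 higher, Tcf7 at 1.57-fold and Eomes at 1.51-fold, and summed to 642 and 721 FPKM. Erythroid markers had 1 of 7 tested genes lower, Car2 at 2.07-fold, and summed to 208 and 158 FPKM. Beside the counts of called genes in these lists, 2.81% of all tested entries were called higher and 4.14% lower. How far these cells set the values of Flt3, Cd93 and Egfl7 was not tested.

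**Figure D4:**
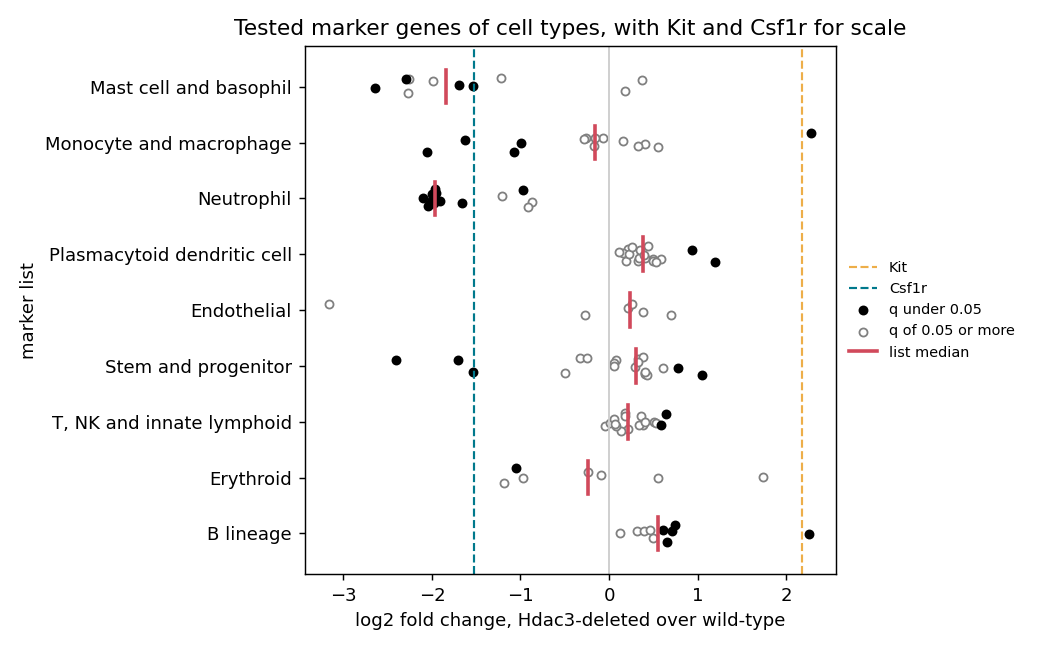
Log2 fold change of each tested marker gene (Hdac3-deleted over wild-type) by cell type list, with filled points for a q under 0.05, red bars at list medians, and dashed lines at Kit (2.18) and Csf1r (-1.52). Mast cell and basophil markers and neutrophil markers have medians of -1.84 and -1.96, and the B-lineage and plasmacytoid dendritic cell markers lie mostly to the right of 0.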

How the data were processed

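RNA was measured in 4 libraries, 2 per genotype, grouped by the labels. The submitters' processing notes name Trimmomatic 0.32, TopHat2 2.0.11, Cuffdiff 2.1.1 and the mm10 build. Their options and annotation were not given in the sources used here. Per the file headers, each gene has 1 FPKM value for each genotype. The authors' p-value and q-value and Cuffdiff's test statistic, a score, were deposited with it. Without values per library, the error of each comparison is that of the authors' Cuffdiff model. The q-value is a Benjamini-Hochberg adjustment over 12683 tested of 23275 entries. The smallest p-value, 5e-05, is shared by 396 genes, which cannot be ranked by it.

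FPKM values gave the fold changes, since the fold column as deposited has 688 cells without a number. The implied standard error is the log2 fold change over the test statistic, with a normal quantile of 1.96. The authors' p-values do not follow this normal reading, so an interval can include 0 where p is under 0.05. With a normal approximation 3.73% of 12643 entries were called, against 6.95% by the authors' q. Library depth is not given. In entries not tested, with 1 annotated transcript of at least 2000 bases, FPKM times length clustered at 18.9 (wild-type) and 21.1 (Hdac3-deleted), which was taken as the value of 1 fragment. By this, 1 fragment counted for 1.12 times as much FPKM after Hdac3 deletion, and the commonest ratio of low values was 1.14.

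The members and 13 gene lists were chosen with earlier results of these data known. Of 234 list symbols, 4 were matched through older symbols and 4 were not matched. The rule for names took the 8 members, Hdac3, receptor ligands, up to 8 called genes of each pathway list, the 2 most abundant and up to 2 called genes of each marker list, and the 3 genes nearest to each called member. The other named genes (Mecom, Hlf, Fgd5, Lmo2, Cma1, Cpa3, Hdc, Spi1, Kdr, Ptprc, Spn, F13a1, Cx3cr1, Adgre1, Ccr2, Cd68, the C1q genes, and markers at or near 0) were chosen after their values were seen. The values of some list genes are not reported here. Promoters of 6 members and the miRNA come from RefSeq tables of GRCm38.p6. Call counting was tested on simulated data. Computations used matplotlib 3.10.9, statsmodels 0.14.6, Python 3.11.15, scipy 1.17.1, numpy 2.4.6 and pandas 2.3.3.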

Additional observations from a re-analysis of the deposited data

How the results depend on the processing

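Kit and Csf1r were called under every alternative run: q under 0.01, q under 0.1, at least 2-fold, at least 1 FPKM in both genotypes, a normal approximation to the test statistic, and entries that share no locus. Most of these runs could not have removed them. Both have the smallest p-value, exceed 2-fold and 1 FPKM, and share no locus, and a more lenient q drops no gene. Egfl7 was called in all but the last, where its entry drops out because it shares a locus with Mir126, leaving 1 higher gene. At q under 0.1, 2 genes were lower, with Slamf1 added, and 3 higher, with Flt3 added, against 9.18% of tested entries called. Of 32 log2 fold changes recomputed with pseudocounts or other scaling, 0 changed sign and 2 moved by more than the implied standard error, both at a pseudocount of 1 FPKM, namely Csf1r at -1.14 and Slamf1 at -0.38. In the gene lists, q under 0.01 left 3 called stem and progenitor markers, 4 early B-cell stage genes and 1 relative or partner of the 8 genes. It also left 0 T, NK and innate lymphoid markers and 1 B-lineage marker. At q under 0.01, 4.21% of all tested entries were called, against 6.95% at q under 0.05. Requiring at least 1 FPKM in both genotypes left 3 stem and progenitor markers and 3 monocyte and macrophage markers, beside 6.15% of all such entries called. No paired analysis was possible because the table holds 1 value per genotype, and for the same reason no library could be left out. Depth limits Cd34, Procr and Slamf1 most, which were under 1.5 FPKM in wild-type samples and have the widest implied intervals of the 8 genes.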
